A study of Rattus norvegicus with 36 samples.

Results

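The 10 genes described here are chemokines and inflammatory cytokines of the rat liver: Ccl2, Ccl5, Cxcl1, Cxcl9, Cxcl10, Cxcl12, Cxcl16, Il1a, Il1b and Ltb. They were taken as a named list, by matching the gene name of each array probe to the current symbol or an older synonym. All 10 were among the 9314 genes that could be tested, out of 21516 on the array, where a probe with no gene name counts as its own gene. Illumina RatRef arrays measured whole-liver RNA of 36 male Wistar rats, with 1 array a rat. Rats were vitamin A sufficient (VAS) or were made vitamin A deficient (VAD) ahead of the operation. They were then sham operated (SHAM) or had the bile duct ligated (BDL), and were injected every day into the peritoneum with vehicle (VEH) or with retinyl-palmitate (VITA), a storage ester of vitamin A. All 8 combinations were present, with 4 rats in each SHAM group and 5 rats in each BDL group. The sources used here give no age, dose or time after operation, so a VAD BDL VEH rat is known only as deficient, ligated and injected with vehicle.

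Chemokines are small secreted proteins that draw leukocytes along a gradient through G protein-coupled receptors. CC chemokines such as Ccl2 mainly call monocytes and T cells, CXC chemokines of the Cxcl1 kind call neutrophils, and the interferon-inducible Cxcl9 and Cxcl10 call T and NK cells that carry the receptor Cxcr3. Interleukin-1 and lymphotoxin act upstream of many of these genes through the transcription factor NF-kappaB. Blocked bile flow is a known trigger of hepatic inflammation, in which Kupffer cells, bile duct cells, stellate cells and hepatocytes all make chemokines. In whole liver, a change in the number of cells of a type and a change in the RNA of each cell cannot be told apart.

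Levels are normalised log2 intensities of 1 probe a gene, so they compare groups for a gene and not one gene with another. A probe was taken as detected on an array when its deposited detection p-value was under 0.01, and arrays had 29.2% to 38.1% of their probes detected. Ccl5, Cxcl1, Cxcl9 and Cxcl12 were detected on all 36 arrays, Cxcl16, Il1a and Il1b on 35, Ltb on 31, Cxcl10 on 17 and Ccl2 on 14. Ccl2 therefore entered the test only through the ligated groups, and Cxcl10 mainly through them. Their ligation calls are thus of genes that the filter admitted for being detected after ligation. A further Cxcl16 probe was detected on 0 arrays and was not used. Each change is given as the log2 difference of 2 group means, followed by its standard error (SE). Tests are limma's and two-sided, with p adjusted over all 9314 genes, and the call threshold is an adjusted p of 0.05. The 36 arrays lay on 3 slides, each with 12 arrays of several groups.

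**Figure D1:**
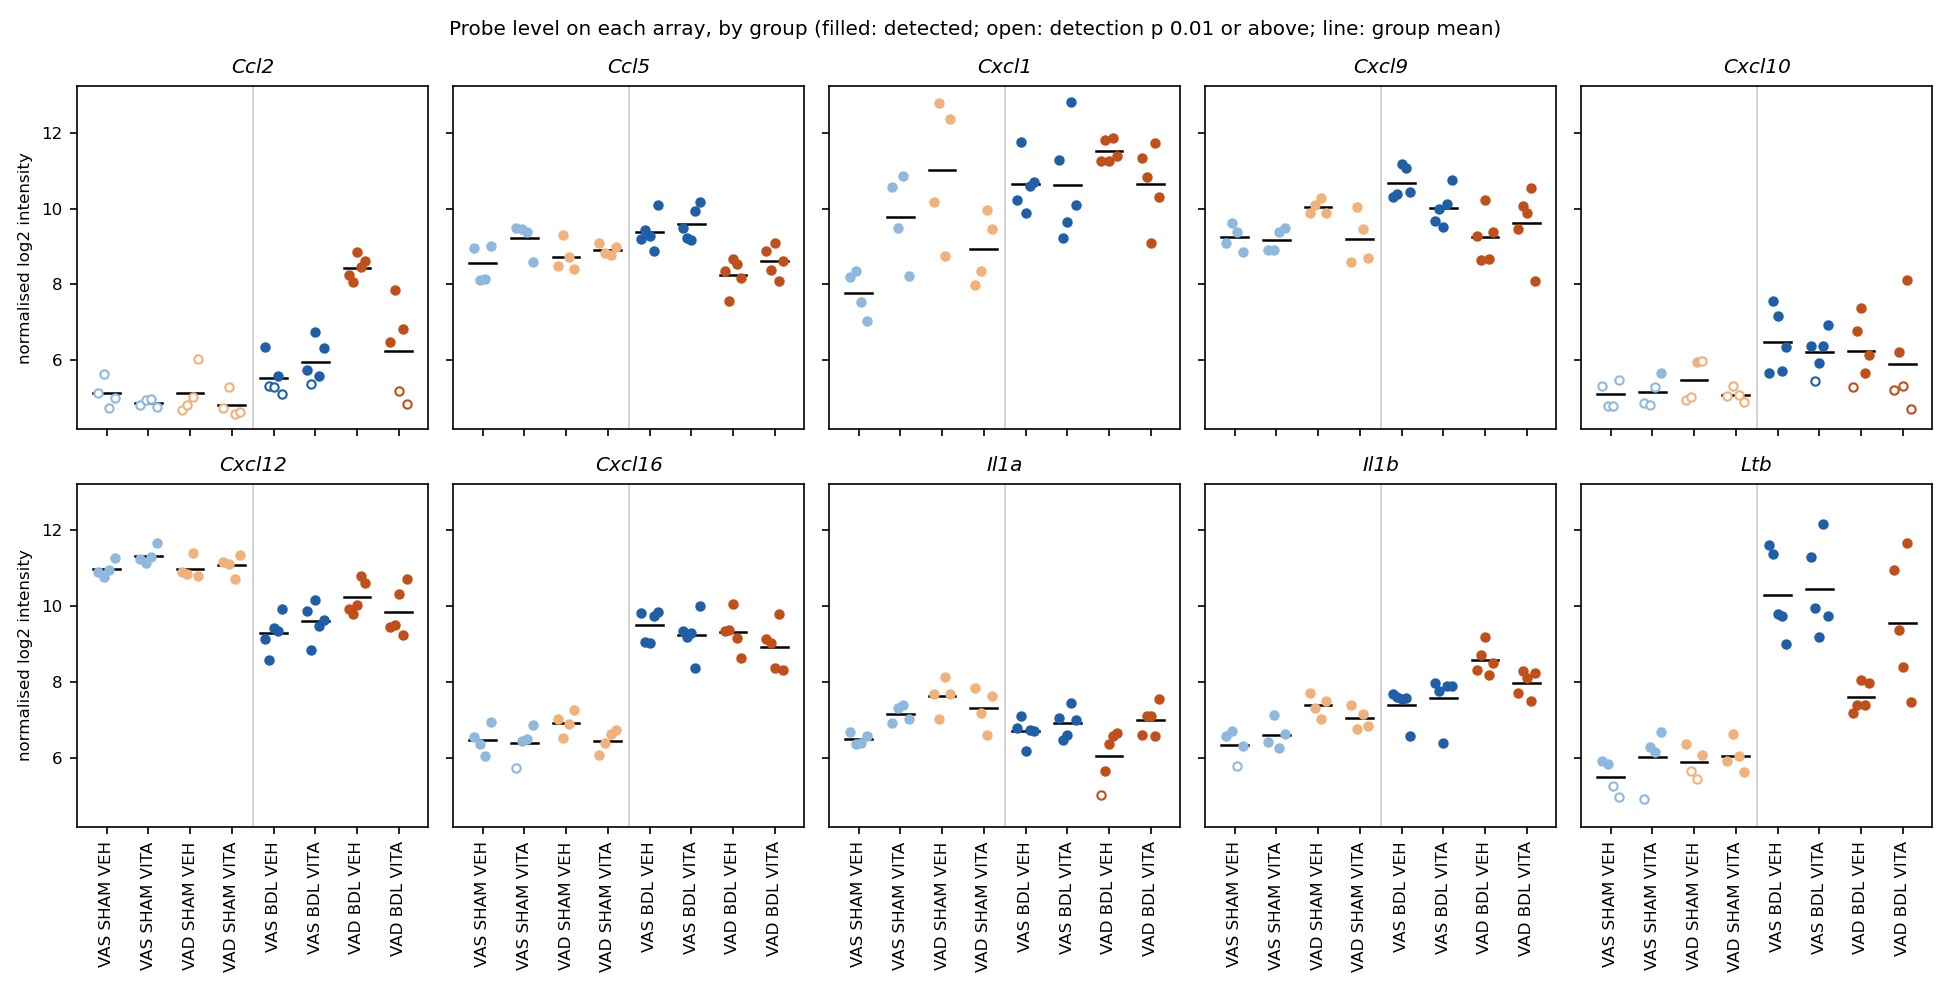
Normalised log2 intensity (vertical axis) of each of the 10 genes on each array, in the 8 groups (horizontal axis), with filled points for arrays that detected the probe, open points for arrays that did not, and a line at the group mean. Sham groups are on the left of each panel and ligated groups on the right. The 5 VAD BDL VEH arrays stand between 8.07 and 8.85 for Ccl2, above every other array, and between 7.19 and 8.06 for Ltb, below every other vehicle-injected ligated array.

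The genes fell into different patterns, and the number called is best read against the share of all genes called in the same comparison. Ligation in VAS VEH rats changed 8 of the 10 genes, 7 higher and 1 lower, where 17.4% of all genes were called; the median difference was 1.22 over the 10 genes and -0.011 over all genes. Ligation in VAD VEH rats changed 6, 4 higher and 2 lower, where 40.5% of all genes were called (medians 0.63 and -0.037). With retinyl-palmitate, ligation changed 5 genes in VAS rats (4 higher and 1 lower, against 25.3% of all genes) and 5 in VAD rats (4 higher and 1 lower, against 24.3%).

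Between the diets, VAD and VAS rats differed in 6 of the 10 genes after ligation with vehicle, 3 higher and 3 lower in VAD rats, against 26.4% of all genes. Their sham-operated counterparts differed in 2, both higher in VAD rats, against 1.11%. With retinyl-palmitate, limma called 0 of the 10 genes between the diets in ligated rats, with 1 at an unadjusted p under 0.05, against 0.0322% of all genes. In sham rats with retinyl-palmitate it called 0, with 0 at an unadjusted p under 0.05, against 0% of all genes.

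Retinyl-palmitate against vehicle changed 3 genes in VAD BDL rats, 2 higher and 1 lower, against 17% of all genes. It changed 0 in VAD SHAM rats (2 at an unadjusted p under 0.05, against 1.3% of all genes), 0 in VAS SHAM rats (3 at an unadjusted p under 0.05, against 0.0215%) and 0 in VAS BDL rats (0 at an unadjusted p under 0.05, against 0%). Neighbouring comparisons share arrays: the VAD BDL VEH rats, for example, stand in the diet, the ligation and the injection comparison alike. Within slides that held both groups, the called genes moved in the direction of the pooled value in 18 of 18 slide values for diet in BDL VEH rats, 24 of 24 for ligation in VAS VEH rats and 12 of 12 for ligation in VAD VEH rats. The figures were 15 of 15 and 10 of 10 for ligation in VAD and VAS rats with retinyl-palmitate, 4 of 4 for diet in SHAM VEH rats and 8 of 9 for injection in VAD BDL rats.

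**Figure D2:**
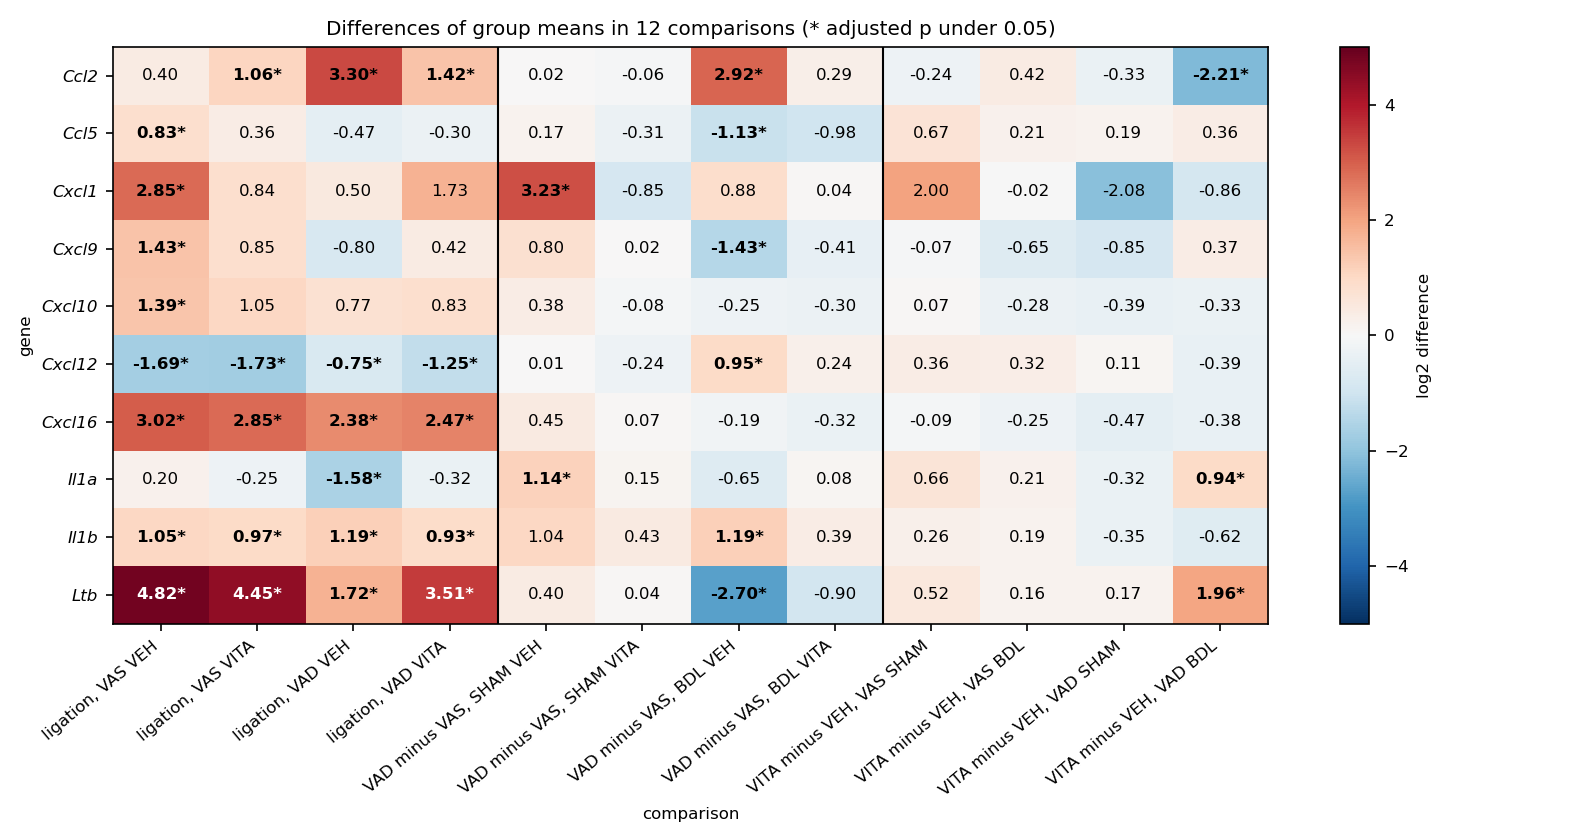
Log2 difference of group means for each gene (vertical axis) in the 12 comparisons of 2 groups (horizontal axis), as colour and printed value, with an asterisk where the adjusted p was under 0.05. Cxcl16 and Ltb are raised in all 4 ligation columns and Cxcl12 is lowered in all 4, while Ccl2 stands out with 3.30 for ligation and 2.92 for diet among vehicle-injected rats and -2.21 for injection in VAD BDL rats.

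Ccl2, the monocyte chemoattractant protein that acts through the receptor Ccr2, was raised in deficient ligated livers. The 5 VAD BDL VEH rats had levels of 8.24, 8.07, 8.85, 8.45 and 8.61, all detected. The 5 VAS BDL VEH rats had 6.34, 5.31, 5.28, 5.57 and 5.12, with 2 of 5 detected, and no value reached the lowest VAD rat. The VAD BDL VEH mean was higher by 2.92 (SE 0.36, adjusted p = 1.5e-07). With the VAS mean near background the size depended on the processing: it was 2.01 (adjusted p = 5.8e-09) with a background offset of 50 and 1.06 (1.3e-09) in the authors' value table. In sham livers Ccl2 was not detected on any of the 16 arrays, so ligation in VAD VEH rats raised it at least 6.48-fold (3.30 (0.39), adjusted p = 2.1e-08). In VAS VEH rats the ligation difference was 0.40 (0.39, adjusted p = 0.55). The difference between these 2 ligation effects was itself called (2.90 (0.55), adjusted p = 0.00065).

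Ccl2 was lower and spread more widely in ligated deficient rats given retinyl-palmitate. The 5 VAD BDL VITA rats had levels of 6.47, 7.85, 5.19, 6.83 and 4.85, with 3 of 5 detected, and none reached the lowest vehicle-injected rat. Their mean was below that of VAD BDL VEH rats (-2.21 (0.36), adjusted p = 3.4e-05; -1.56 with offset 50 and -0.85 in the authors' value table), and the difference was -1.09, -2.45 and -3.68 within slides 1, 2 and 3. In VAS BDL rats the levels with retinyl-palmitate were 5.73, 5.36, 6.74, 5.58 and 6.31, with 4 of 5 detected, a difference of 0.42 (0.36, adjusted p = 0.89) from vehicle. The injection effect differed between the diets (-2.63 (0.51), adjusted p = 0.00055), the only one of the 10 genes called for that difference, where 13.4% of all genes were. Without slide 3 that value was -1.72 (adjusted p = 0.1).

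The injection effect on Ccl2 in VAD rats was not shown to differ between ligated and sham rats (-1.88 (0.55), adjusted p = 0.053). For that difference limma called 0 of the 10 genes, with 4 at an unadjusted p under 0.05, against 2.72% of all genes. Ccl2 passed there with slide as a block (-2.03, adjusted p = 0.03), with offset 50 (-1.37, adjusted p = 0.011), under median scaling (-2.03, adjusted p = 0.04), in the authors' value table (-0.79, adjusted p = 0.0017), and without VAD BDL VITA replicate 2 (-2.28, adjusted p = 0.0049) or 4 (-2.03, adjusted p = 0.044), or VAD SHAM VEH replicate 4 (-2.17, adjusted p = 0.03). With retinyl-palmitate, ligation raised Ccl2 at least 1.56-fold in VAD rats (1.42 (0.39), adjusted p = 0.0063) and at least 1.19-fold in VAS rats (1.06 (0.39), adjusted p = 0.041). The VAS value missed the threshold without any 1 of 6 arrays, namely VAS BDL VITA replicates 3 (0.87, adjusted p = 0.13) and 5 (0.97, 0.09) and VAS SHAM VITA replicates 1 to 4 (1.02 to 1.10, adjusted p 0.066 to 0.083). Without slide 3 it was 0.62 (adjusted p = 0.43), with offset 50 it was 0.54 (0.076), it was 0.20 (0.19) in the authors' value table, and with no filter its adjusted p was 0.086. The VAD value had an adjusted p of 0.079 with only its 2 groups fitted.

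Ccl5, known as RANTES, a T cell and monocyte chemokine made by T cells, NK cells and macrophages, ran the other way. In BDL VEH rats its levels were 8.34, 7.55, 8.67, 8.53 and 8.16 in VAD and 9.19, 9.44, 9.28, 8.89 and 10.10 in VAS animals. The groups did not overlap, and the VAD mean was 2.19-fold lower (-1.13 (0.25), adjusted p = 0.00076). In sham VEH rats the levels were 8.48, 9.29, 8.71 and 8.40 in VAD and 8.95, 8.11, 8.13 and 9.02 in VAS animals, with a difference of 0.17 (0.28, adjusted p = 0.93). With retinyl-palmitate the ligated VAD rats (8.10 to 9.09) again lay below the ligated VAS rats (9.18 to 10.16) without overlap, but the value did not pass (-0.98 (0.25), adjusted p = 0.14).

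Ligation raised Ccl5 in VAS VEH rats (0.83 (0.27), adjusted p = 0.028) and gave -0.47 (0.27, adjusted p = 0.16) in VAD VEH rats. The difference of these effects was called (-1.30 (0.38), adjusted p = 0.026). Both calls were near the threshold. The rise in VAS rats missed it without VAS BDL VEH replicate 2 (0.81, adjusted p = 0.05) or 5 (0.65, adjusted p = 0.1) or VAS SHAM VEH replicate 2 (0.68, adjusted p = 0.12) or 3 (0.69, adjusted p = 0.12). The difference of effects missed it without VAD BDL VEH replicate 2 (-1.12), VAD SHAM VEH replicate 2 (-1.11), VAS BDL VEH replicate 5 (-1.12) or VAS SHAM VEH replicate 2 (-1.15) or 3 (-1.16), with adjusted p from 0.058 to 0.076, and under median scaling (-1.14, adjusted p = 0.14).

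Cxcl1, a neutrophil chemoattractant that acts through Cxcr2, was raised by ligation in sufficient vehicle-injected rats and by deficiency in sham vehicle-injected rats. In VAS rats given retinyl-palmitate the ligation difference did not pass (0.84 (0.68), adjusted p = 0.39). The 4 VAS SHAM VEH rats had levels of 8.20, 8.35, 7.54 and 7.03. The 5 VAS BDL VEH rats had 10.23, 11.75, 9.88, 10.60 and 10.71, all above them. Ligation thus raised Cxcl1 7.23-fold in VAS VEH rats (2.85 (0.68), adjusted p = 0.0028; 2.05 in the authors' value table).

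The 4 VAD SHAM VEH rats had Cxcl1 levels of 10.18, 12.78, 8.74 and 12.36, which lay above every VAS SHAM VEH rat but spread over 4 log2 units. The mean was 9.41-fold higher than in VAS SHAM VEH rats (3.23 (0.72), adjusted p = 0.013). Deficient ligated rats had 11.26, 11.82, 11.26, 11.85 and 11.39, within the range of the VAD SHAM VEH rats. The difference did not pass (0.50 (0.68), 95% interval -0.90 to 1.90, adjusted p = 0.6). Whether ligation acted differently in the 2 diets did not pass the test for Cxcl1 (-2.35 (0.97), adjusted p = 0.14). It did so without VAD SHAM VEH replicate 3 (-3.11, adjusted p = 0.033).

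The sham diet value of Cxcl1 lost its call when single arrays were left out. It was 2.64 (adjusted p = 0.077) without VAD SHAM VEH replicate 2, 2.79 (0.088) without replicate 4, and 3.16 and 2.98 (both 0.054) without VAS SHAM VEH replicates 3 and 4, and it was 3.99 (adjusted p = 0.0012) without VAD SHAM VEH replicate 3. It was 3.45 (adjusted p = 0.062) without slide 3 and 2.50 (0.06) in the authors' value table, and its adjusted p was 0.14 with only the 2 groups fitted. In sham rats given retinyl-palmitate the levels were 7.97, 8.34, 9.96 and 9.45 in VAD and 10.56, 9.48, 10.85 and 8.22 in VAS animals. The injection differences were -2.08 (0.72, adjusted p = 0.19) in VAD and 2.00 (0.72, adjusted p = 1) in VAS sham rats, and neither passed. The VAD value passed without VAD SHAM VEH replicate 3 (-2.84, adjusted p = 0.042).

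The promoter window of Cxcl1 is shown because the gene is a classical target of NF-kappaB. It runs from 250 bases before to 50 bases from the start site in RefSeq on build GRCr8. Ligation raised both Cxcl1 and NF-kappaB genes in VAS VEH rats. In VAD VEH rats NF-kappaB genes such as Nfkb2 rose too (2.18 (0.39)), while the Cxcl1 difference did not pass in limma (0.50 (0.68), adjusted p = 0.6). A link between them was not tested. Capitals mark the letters GGGNNNTTCC, a kappaB-like motif, on either strand. The window, chr14:17479272-17479571 on the minus strand, is printed 5′ to 3′.
Cxcl1: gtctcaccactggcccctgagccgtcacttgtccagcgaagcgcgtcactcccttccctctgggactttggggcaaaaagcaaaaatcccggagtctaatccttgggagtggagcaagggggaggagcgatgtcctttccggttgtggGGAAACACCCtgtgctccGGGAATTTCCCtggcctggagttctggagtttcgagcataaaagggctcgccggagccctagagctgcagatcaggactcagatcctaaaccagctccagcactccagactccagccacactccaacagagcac
The letters occur at bases -102 to -93 and at -84 to -74 from the start site, where a match on each strand overlaps. Of 33469 rat promoter windows, 5.37% hold this motif on either strand, and 3 of the 8 windows listed for the 10 genes do (Cxcl1, Cxcl10 and Ltb). Ccl2 and Ccl5 have no window in the table. A direct-repeat retinoid motif (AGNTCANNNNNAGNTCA) is in 0 of the 8 windows and in 0.09% of all windows. A match or its absence describes these letters in this window and no more.

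Cxcl9 and Cxcl10, both induced by interferon-gamma and both ligands of Cxcr3, were raised by ligation in sufficient vehicle-injected rats. In VAS rats given retinyl-palmitate the ligation differences were 0.85 (0.36, adjusted p = 0.077) for Cxcl9 and 1.05 (0.47, adjusted p = 0.1) for Cxcl10. Neither passed, though both did with only the 2 groups fitted (adjusted p = 0.027 and 0.02). Cxcl9 stood at 9.08, 9.62, 9.39 and 8.86 in VAS SHAM VEH rats and at 10.30, 10.38, 11.17, 11.07 and 10.44 in VAS BDL VEH rats. These groups were separate, with a 2.70-fold rise (1.43 (0.36), adjusted p = 0.004). In VAD VEH rats it was 9.89, 10.10, 10.28 and 9.88 after sham operation and 9.28, 8.65, 10.22, 8.67 and 9.37 after ligation, a difference of -0.80 (0.36, adjusted p = 0.072).

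Ligation therefore acted differently on Cxcl9 in the 2 diets (-2.23 (0.50), adjusted p = 0.0039). Among ligated VEH rats every VAD value lay below every VAS value, by 2.69-fold in the mean (-1.43 (0.33), adjusted p = 0.0013), with -1.05, -1.68 and -1.42 within slides 1, 2 and 3. The ligation value in VAD rats passed as a fall with slide as a block (-0.99, adjusted p = 0.017) and without VAD BDL VEH replicate 3 (-1.04, adjusted p = 0.02). In VAD BDL rats given retinyl-palmitate Cxcl9 ran from 8.09 to 10.55 (median 9.89) and overlapped both groups, with a difference of 0.37 (0.33, adjusted p = 0.52) from vehicle.

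Cxcl10 lay near the background. It was detected on 0 of 4 VAS SHAM VEH arrays (5.33, 4.80, 4.78 and 5.47) and on 5 of 5 VAS BDL VEH arrays (5.66, 7.56, 7.16, 5.71 and 6.35). Ligation raised it at least 1.64-fold there (1.39 (0.47), adjusted p = 0.038). The call ended without VAS BDL VEH replicate 2 (1.12), 3 (1.23) or 5 (1.43) or VAS SHAM VEH replicate 1 (1.47), 2 (1.30) or 3 (1.29), with adjusted p from 0.053 to 0.12, and without slide 3 (1.55, adjusted p = 0.067). It also ended with offset 50 (0.78, adjusted p = 0.057), in the authors' value table (0.32, adjusted p = 0.11) and when no gene was filtered out (0.083). In VAD BDL VEH rats the levels were 5.29, 6.78, 7.37, 5.65 and 6.13, with 4 of 5 detected, and overlapped those of VAS BDL VEH rats (-0.25 (0.45), adjusted p = 0.74). The difference between the ligation effects of the diets did not pass for Cxcl10 (-0.63 (0.67), 95% interval -2.00 to 0.75, adjusted p = 0.67).

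The promoter window of Cxcl10 (chr14:15988816-15989115, plus strand, GRCr8) is shown because it carries both letters of interest. Capitals mark the interferon response-like letters GAAANNGAAA at bases -243 to -234 and the kappaB-like letters at -187 to -178 and -128 to -118.
Cxcl10: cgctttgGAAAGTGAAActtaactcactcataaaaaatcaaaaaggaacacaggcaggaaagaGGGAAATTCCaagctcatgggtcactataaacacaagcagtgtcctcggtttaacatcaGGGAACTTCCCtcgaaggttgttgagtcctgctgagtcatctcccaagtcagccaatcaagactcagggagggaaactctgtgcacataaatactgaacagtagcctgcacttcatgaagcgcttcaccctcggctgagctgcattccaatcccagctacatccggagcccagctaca
The interferon response-like letters are in 3.92% of all windows and in 1 of the 8 listed for the 10 genes. The window of Cxcl9, its neighbour on chromosome 14, holds neither motif.

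Cxcl12, a constitutive chemokine that retains cells carrying Cxcr4, was the only one of the 10 genes that fell with ligation in all 4 settings. In VAS VEH rats it went from 10.91, 10.76, 10.96 and 11.26 to 9.13, 8.58, 9.43, 9.35 and 9.91, a 3.23-fold fall without overlap (-1.69 (0.27), adjusted p = 2.5e-05). In VAD VEH rats it went from 10.91, 10.84, 11.39 and 10.78 to 9.92, 9.80, 10.03, 10.78 and 10.61, where the highest ligated rat met the lowest sham rat to 2 decimals (-0.75 (0.27), adjusted p = 0.026). With retinyl-palmitate the falls were -1.73 (0.27, adjusted p = 1.2e-05) in VAS and -1.25 (0.27, adjusted p = 8e-04) in VAD rats.

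Among ligated VEH rats Cxcl12 was 1.93-fold higher in VAD than in VAS animals (0.95 (0.26), adjusted p = 0.0051), although the ranges of 9.80 to 10.78 and 8.58 to 9.91 overlapped. The difference between the 2 ligation effects did not pass (0.94 (0.39), adjusted p = 0.14); it passed with slide as a block (0.94, adjusted p = 0.038). The fall in VAD VEH rats missed the threshold without VAD BDL VEH replicate 1 (-0.68), 2 (-0.65) or 3 (-0.70) or VAD SHAM VEH replicate 3 (-0.62), with adjusted p from 0.055 to 0.1, and under median scaling (-0.71, adjusted p = 0.077). Its receptor Cxcr4 was detected on 5 of 5 VAD BDL VEH and 0 of 5 VAS BDL VEH arrays and was at least 2.59-fold higher in the former (1.72 (0.20), adjusted p = 3.2e-08).

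Cxcl16, a membrane-bound chemokine and scavenger receptor whose receptor is Cxcr6, rose with ligation in all 4 settings, and no diet difference in it passed the test. In VAS VEH rats it went from 6.54, 6.37, 6.05 and 6.93 to 9.81, 9.04, 9.02, 9.75 and 9.84, and in VAD VEH rats from 7.03, 6.51, 6.88 and 7.26 to 9.33, 9.37, 10.06, 9.15 and 8.62. Sham and ligated rats were separate in both diets. The rises were 8.10-fold (3.02 (0.30), adjusted p = 8.6e-09) and 5.22-fold (2.38 (0.30), adjusted p = 9.7e-08), or 1.59 and 1.31 on the log2 scale in the authors' value table. With retinyl-palmitate they were 2.85 (0.30) in VAS and 2.47 (0.30) in VAD rats, with adjusted p of 1.7e-08 and 2.3e-07.

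The diet difference of Cxcl16 in ligated VEH rats was -0.19 with a 95% interval from -0.77 to 0.40 (adjusted p = 0.69). That in ligated VITA rats was -0.32, from -0.90 to 0.27 (adjusted p = 0.65). The difference between the ligation effects was -0.63, from -1.51 to 0.24 (adjusted p = 0.44). None of these 3 passed, and the intervals leave room for differences of up to 0.90 on the log2 scale within ligated rats.

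The interleukin-1 genes parted from each other. Il1b, the secreted form that inflammasome caspases process, rose with ligation in all 4 settings and was highest in VAD BDL VEH rats. Its levels there were 8.30, 8.72, 9.18, 8.18 and 8.51, against 7.68, 7.59, 7.54, 7.57 and 6.57 in VAS BDL VEH rats. The groups did not overlap and the VAD mean was 2.28-fold higher (1.19 (0.26), adjusted p = 6e-04). Sham VEH rats had 7.71, 7.32, 7.03 and 7.49 in VAD and 6.57, 6.70, 5.79 and 6.32 in VAS animals, a separate pair of ranges whose difference did not pass (1.04 (0.29), adjusted p = 0.071).

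The rise of Il1b with ligation was 1.05 (0.27, adjusted p = 0.0063) in VAS VEH rats and 1.19 (0.27, adjusted p = 0.00067) in VAD VEH rats, and the difference between these was 0.15 (0.39, 95% interval -0.65 to 0.94, adjusted p = 0.88). With retinyl-palmitate the rises were 0.97 (0.27, adjusted p = 0.0086) and 0.93 (0.27, adjusted p = 0.011). In VAD BDL rats given retinyl-palmitate the levels were 7.71, 8.28, 8.10, 7.50 and 8.23, and the difference from vehicle did not pass (-0.62 (0.26), adjusted p = 0.1). It passed with slide as a block (-0.69, adjusted p = 0.046), without slide 3 (-0.84, 0.026) and in the authors' value table (-0.36, 0.022). The sham diet difference also passed with slide as a block (1.09, adjusted p = 0.038).

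Il1a, an interleukin-1 that cells hold as an active precursor and release when damaged, fell with ligation in VAD VEH rats, where Il1b rose. Its levels were 7.69, 7.03, 8.12 and 7.67 in VAD SHAM VEH rats and 5.02, 5.64, 6.35, 6.56 and 6.65 in VAD BDL VEH rats, with 4 of 5 of the latter detected. Ligation thus lowered it 3.00-fold in VAD VEH rats (-1.58 (0.28), adjusted p = 2.5e-05; -0.52 in the authors' value table). In VAS VEH rats it was 6.67, 6.35, 6.38 and 6.58 after sham operation and 6.78, 7.10, 6.17, 6.73 and 6.70 after ligation (0.20 (0.28), adjusted p = 0.7), and the 2 ligation effects differed (-1.79 (0.40), adjusted p = 0.0034).

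In sham VEH rats Il1a was 2.20-fold higher in VAD than in VAS animals (1.14 (0.30), adjusted p = 0.048), without overlap. The call ended without VAD SHAM VEH replicate 1 (1.11), 3 (0.97) or 4 (1.12) or any of VAS SHAM VEH replicates 1 to 4 (1.09 to 1.19), with adjusted p from 0.065 to 0.17, and with slide as a block (1.03, adjusted p = 0.051) or median scaling (1.06, adjusted p = 0.18). It also ended without slide 3 (0.90, adjusted p = 0.35), in a fit of the 2 groups alone (adjusted p = 0.067) and when no gene was filtered out (0.095).

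In ligated VEH rats Il1a did not pass between the diets (-0.65 (0.26), adjusted p = 0.066). It passed as lower in VAD rats with slide as a block (-0.72, adjusted p = 0.024) and without slide 3 (-1.03, 0.013). It also passed without VAD BDL VEH replicate 4 (-0.78, adjusted p = 0.035) or 5 (-0.80, adjusted p = 0.028), and without VAS BDL VEH replicate 3 (-0.78, adjusted p = 0.036). Retinyl-palmitate raised Il1a in VAD BDL rats, to 6.59, 7.10, 7.11, 6.57 and 7.55 (0.94 (0.26), adjusted p = 0.011), with some overlap of the groups. Without VAD BDL VEH replicate 1, the lowest array, that value was 0.68 (adjusted p = 0.066), and it was 0.82 (adjusted p = 0.054) under median scaling. With only the 2 groups fitted its adjusted p was 0.07.

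Ltb, the membrane subunit that joins lymphotoxin alpha into a ligand of the lymphotoxin beta receptor, rose with ligation in all 4 settings. In VAS VEH rats it went from 5.92, 5.84, 5.24 and 4.95, with 2 of 4 detected, to 11.61, 11.37, 9.79, 9.73 and 9.01, a rise of 4.82 (0.61, adjusted p = 6.5e-07). Its size depended on the processing, with 3.75 (adjusted p = 5.1e-06) for offset 50 and 2.52 (0.00046) in the authors' value table. In VAD VEH rats it went from 6.36, 5.65, 5.44 and 6.07 to 7.19, 7.39, 8.06, 7.40 and 7.97, a rise of 1.72 (0.61, adjusted p = 0.024), again from a sham group with 2 of 4 arrays detected. Sham and ligated rats were separate in both diets, and the difference between the 2 rises was called (-3.09 (0.87), adjusted p = 0.022).

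Ligated VEH rats were separate by diet as well, with a 6.49-fold lower mean of Ltb in VAD animals (-2.70 (0.58), adjusted p = 0.00052) and differences of -4.30, -2.03 and -1.32 within slides 1, 2 and 3. The VAD rise itself was near the threshold: it missed it without VAD BDL VEH replicate 3 (1.61, adjusted p = 0.052) or VAD SHAM VEH replicate 2 (1.64, adjusted p = 0.055) or 3 (1.58, adjusted p = 0.066), without slide 3 (1.54, adjusted p = 0.11), under another background correction (1.14, adjusted p = 0.096) and in the authors' value table (0.55, adjusted p = 0.4). The difference between the rises was -1.96 (adjusted p = 0.075) in that table.

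With retinyl-palmitate Ltb stood at 10.96, 9.36, 8.38, 11.66 and 7.46 in VAD BDL rats and at 11.28, 9.94, 9.18, 12.16 and 9.75 in VAS BDL rats. The VAD values spread from the vehicle range up to the VAS range. Retinyl-palmitate raised Ltb 3.88-fold in VAD BDL rats (1.96 (0.58), adjusted p = 0.016). The difference was 2.97, 2.29 and -0.23 within slides 1, 2 and 3, the last from 1 VITA array and 2 VEH arrays. The call ended without VAD BDL VITA replicate 1 (1.61, adjusted p = 0.061) or 4 (1.43, adjusted p = 0.082), and with only the 2 groups fitted (adjusted p = 0.07). In VAS BDL rats the injection difference was 0.16 (0.58, adjusted p = 0.97), and the difference between the diets did not pass (1.80 (0.82), adjusted p = 0.15); it passed without VAD BDL VITA replicate 5 (2.32, adjusted p = 0.04).

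The promoter window of Ltb (chr20:3634005-3634304, minus strand, GRCr8) is shown because this gene had the largest ligation difference of the 10 genes in VAS VEH rats. Capitals mark the kappaB-like letters, at bases -25 to -16.
Ltb: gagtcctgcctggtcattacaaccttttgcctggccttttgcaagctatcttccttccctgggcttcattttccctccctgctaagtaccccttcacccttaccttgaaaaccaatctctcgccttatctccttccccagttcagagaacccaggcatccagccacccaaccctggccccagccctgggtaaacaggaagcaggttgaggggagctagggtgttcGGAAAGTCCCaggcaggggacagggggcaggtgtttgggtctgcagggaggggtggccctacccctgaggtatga
Neither the interferon response-like nor the retinoid letters occur in it.

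Over the 10 genes, the response to ligation differed between the diets in 5, where 7.92% of all genes were called. The VAD ligation difference was above the VAS one for 1 (Ccl2) and below it for 4 (Ccl5, Cxcl9, Il1a and Ltb). Of these 4, Ltb rose less in VAD rats and Il1a fell there, while the VAD values of Ccl5 and Cxcl9 did not pass. The plot of ligation effects in the 2 diets places Ccl2 far above the line of equal change and Ltb, Cxcl9, Ccl5 and Il1a below it. Each ligation effect there comes from its own arrays.

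**Figure D3:**
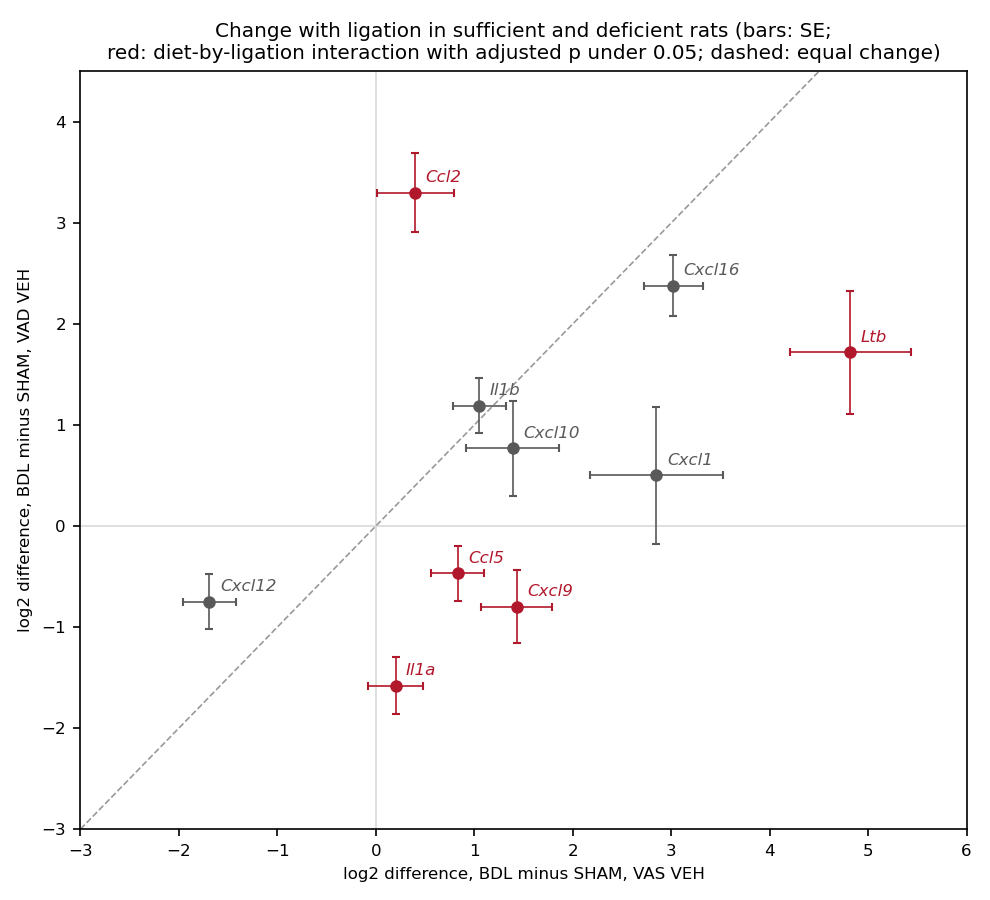
Log2 difference between ligated and sham rats in VAS VEH rats (horizontal axis) and in VAD VEH rats (vertical axis) for the 10 genes, with bars for the SE, a dashed line of equal change, and red for genes whose diet-by-ligation interaction had an adjusted p under 0.05. Ccl2 lies at 0.40 and 3.30, Ltb at 4.82 and 1.72, and Cxcl9 at 1.43 and -0.80.

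Among ligated VEH rats, further chemokines were compared between the diets. Of 11 further CC chemokines tested, 6 were higher and 0 lower in VAD than in VAS rats (median over all 13, with Ccl2 and Ccl5, 0.75; all genes -0.04; 26.4% of all genes called). The monocyte chemokines Ccl12 and Ccl7, close relatives of Ccl2, were at least 4.83-fold (2.92 (0.30), adjusted p = 2.8e-09) and at least 3.72-fold (2.37 (0.30), adjusted p = 1.6e-07) higher. The macrophage chemokine Ccl3 averaged 6.37 in VAD and 4.86 in VAS BDL VEH rats. It passed the filter only through the VAD BDL VEH arrays, with 2 detections elsewhere, so no test of it is given; without it 5 of the CC chemokines were higher. All 5 VAD BDL VEH arrays and 0 of 5 VAS BDL VEH arrays detected these 3 genes.

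Of 6 further CXC, CX3C and XC chemokines, 3 were higher and 1 lower, where 26.4% of all genes were called. Platelet factor Pf4 (2.79 (0.29), adjusted p = 3.5e-09) and the membrane-bound Cx3cl1 (1.40 (0.25), adjusted p = 4.3e-05) were higher in VAD rats. Cxcl11, the remaining interferon-inducible ligand of Cxcr3, was lower (-1.15 (0.25), adjusted p = 0.00049), as Cxcl9 was. Unlike Cxcl9, Cxcl11 fell with ligation in VAS VEH rats (-0.73 (0.26), adjusted p = 0.047).

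Of 8 chemokine receptors tested, 3 were higher and 0 lower in VAD BDL VEH rats, where 26.4% of all genes were called. Among the 3 were Ccr1 (1.84 (0.34), adjusted p = 8.9e-05) and Cxcr4. Ccr1 is a receptor of Ccl3 and Ccl5, and Ccl5 was lower in the same livers. Cxcr3, the receptor of Cxcl9, Cxcl10 and Cxcl11, was near the background, with 0 of 5 VAD BDL VEH arrays and 1 of 5 VAS BDL VEH arrays detecting it (-0.20 (0.24), adjusted p = 0.6). Ccr2, the receptor of Ccl2, was detected on 3 of 36 arrays and was not tested.

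**Figure D4:**
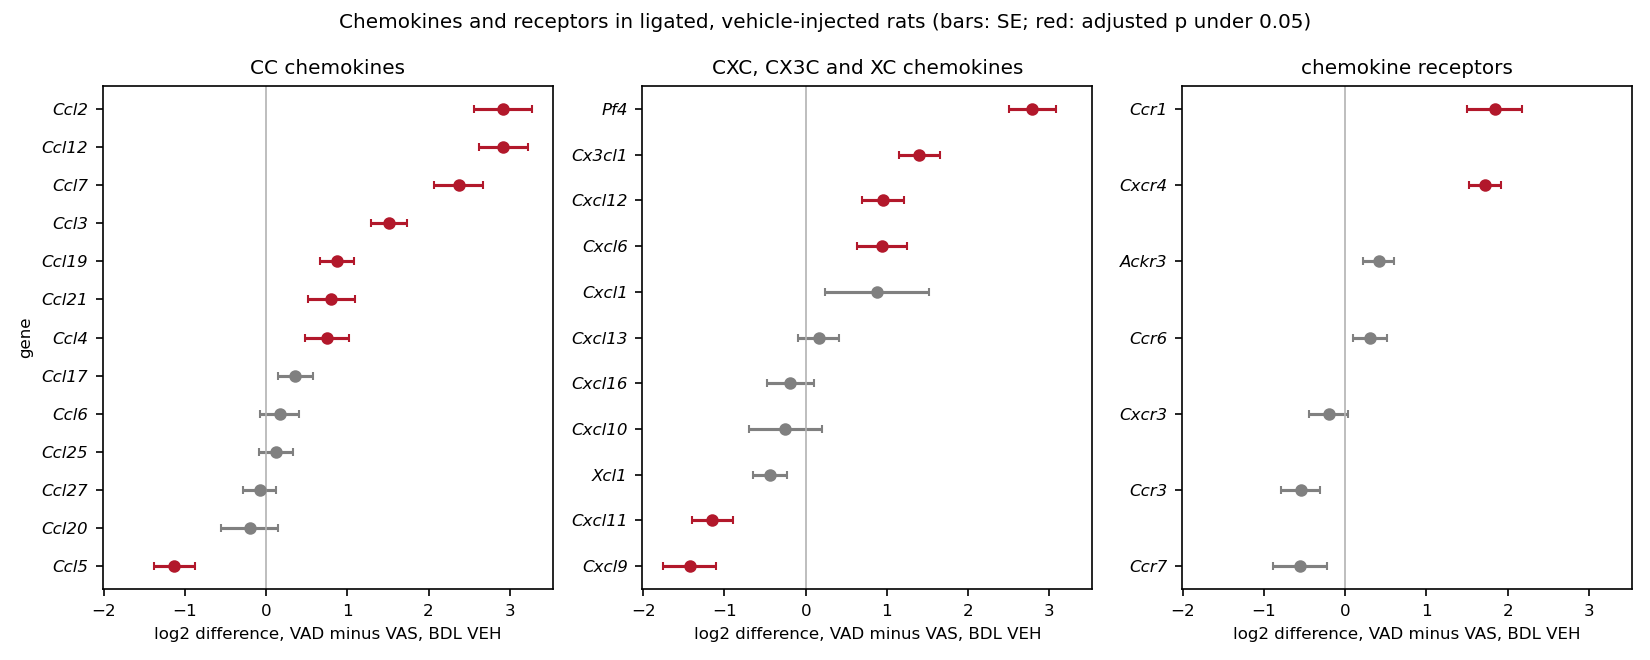
Log2 difference between VAD and VAS rats after ligation with vehicle (horizontal axis, bars for the SE) for tested CC chemokines, CXC, CX3C and XC chemokines and chemokine receptors (vertical axis), in red where the adjusted p was under 0.05. Ccl2 and Ccl12 lie at 2.92 and Pf4 at 2.79, while Ccl5, Cxcl11 and Cxcl9 lie at -1.13, -1.15 and -1.43; Ccl3 entered only through the VAD BDL VEH arrays.

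Around interleukin-1, 3 of 13 further genes were higher and 0 lower in VAD BDL VEH rats, a share no higher than the 26.4% of all genes called. These were the decoy receptor Il1r2 (2.11 (0.34), adjusted p = 1.1e-05), the related cytokine Il18 (1.33 (0.16), adjusted p = 8.9e-08) and the processing enzyme Casp1 (0.70 (0.24), adjusted p = 0.025). In the tumour necrosis factor and lymphotoxin family 5 of 9 were higher and 2 lower, or 4 higher without Tnfsf12, which passed the filter only through the VAD BDL VEH arrays, with the decoy receptor Tnfrsf11b at 2.42 (0.29, adjusted p = 9.6e-08). The lymphotoxin beta receptor itself, Ltbr, was lower by a small amount (-0.46 (0.14), adjusted p = 0.013), a value picked out after it was seen. Tnf and Il6 were detected on 0 arrays, Lta on 1 and Ifng on 3, and none of these was tested.

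NF-kappaB genes were described from a list of subunits, inhibitors and kinases. In VAS VEH rats 6 of 13 rose and 1 fell, where 17.4% of all genes were called, and in VAD VEH rats 6 rose and 1 fell, where 40.5% were. The subunit Nfkb2 rose by 2.56 (0.39, adjusted p = 1.3e-05) and 2.18 (0.39, adjusted p = 3e-05), the inhibitor Nfkbia by 1.61 (0.22, adjusted p = 2.9e-06) and 1.17 (0.22, adjusted p = 7e-05), and the target Birc3 by 1.98 (0.40, adjusted p = 0.00045) and 1.61 (0.40, adjusted p = 0.0015). Between the diets after ligation, 1 of 13 NF-kappaB genes was lower (Chuk, -0.50 (0.15), adjusted p = 0.011), against 26.4% of all genes called. Nfkb1 averaged 5.64 in VAD and 4.93 in VAS BDL VEH rats, but it passed the filter only through the VAD BDL VEH arrays, so its call, and its place among the 6 that rose in VAD VEH rats, is not read as a result.

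Of 8 genes of the interferon-gamma axis, 6 rose and 0 fell with ligation in VAS VEH rats, where 17.4% of all genes were called. In VAD VEH rats 4 rose and 0 fell, where 40.5% were. Between the diets after ligation, where 26.4% of all genes were called, 2 were higher, the receptor chain Ifngr1 (0.98 (0.16), adjusted p = 1.3e-05) and the kinase Jak2 (0.65 (0.17), adjusted p = 0.0038). The other 2 called were lower, among them the interferon-inducible GTPase Gbp5 (-0.82 (0.24), adjusted p = 0.0093). Gbp5 had risen with ligation in VAS VEH rats at least 1.13-fold (1.34 (0.25), adjusted p = 0.00022). It was detected only on ligated arrays and so entered the test only through them.

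Proteases that cut chemokines moved too, with 3 of 6 higher and 1 lower in VAD BDL VEH rats, against 26.4% of all genes called. Mmp12, the macrophage elastase, was higher by 5.28 (0.47, adjusted p = 2.5e-10), and Dpp4, which trims the ends of Cxcl9, Cxcl10 and Cxcl12, was lower (-0.67 (0.12), adjusted p = 5.2e-05). Of 8 other cytokines 2 were higher and 1 lower, with Tgfb1 at 1.41 (0.26, adjusted p = 7.3e-05); Tgfb3, also among the higher ones, passed the filter only through the VAD BDL VEH arrays. Of 7 other cytokine receptors 0 were higher and 1 lower (Il6r, -0.61 (0.22), adjusted p = 0.04). Without Tgfb3, 1 of the other cytokines was higher and 1 lower, a share near the 26.4% of all genes called. The share of the receptor list is below it.

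With retinyl-palmitate in VAD BDL rats, 0 of the 11 CC chemokines rose and 5 fell, where 17% of all genes were called. Ccl3 averaged 5.18 in these rats and 6.37 in VAD BDL VEH rats. It passed the filter only through the VAD BDL VEH arrays, so any fall of it counted among the 5 is not read as a result. Ccl12 fell by 2.21 (SE 0.30, adjusted p = 1.5e-06) and Ccl7 fell by 2.03 (0.30, adjusted p = 5.7e-06), both detected on 2 of 5 VITA arrays. Pf4 fell by 1.79 (0.29, adjusted p = 2.2e-05) and Cxcr4 fell by 1.38 (0.20, adjusted p = 4.3e-06). Cxcl11 rose by 0.82 (0.25, adjusted p = 0.017), the only 1 of the 6 further CXC, CX3C and XC chemokines to rise, while 3 fell.

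Markers of several cell types moved beside these genes in VAD BDL VEH rats. The share of all genes called between the diets after ligation with vehicle was 26.4%. Of 11 macrophage markers 9 were higher and 0 lower than in VAS BDL VEH rats, and their summed linear intensity ran from 18300 to 33800 (median 21800), against 10600 to 13800 (median 11600). Of 6 stellate cell and myofibroblast markers 6 were higher, with a summed level of 11100 to 18300 against 2280 to 3520, and of 7 bile duct cell markers 5 were higher, with 3960 to 6120 against 1180 to 1860. In VAD BDL VITA rats the summed levels were 10800 to 17000, 3110 to 6020 and 1770 to 3390. Muc1, a bile duct cell marker, was detected on 4 arrays, VAD BDL VEH among them, and passed the filter only with that group. Any call of it among the 5 is not read as a result. The other markers were not screened in this way.

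T and NK cell markers were mixed, with 2 of 9 higher and 2 lower, where 26.4% of all genes were called. Their summed levels were 376 to 981 in VAD and 368 to 591 in VAS BDL VEH rats. Within this list Cd8a was higher (1.99 (0.32), adjusted p = 8.9e-06) while granzyme A, Gzma, was lower (-1.45 (0.27), adjusted p = 7.9e-05), as was perforin, Prf1 (-1.05 (0.23), adjusted p = 0.00071). These 3 were picked out after their values were seen. Of the T cell receptor genes Cd3d was detected on 3 arrays and Cd3e on 2. Neutrophil markers were tested for 1 of 9 genes on the array, which was higher by 1.70 in VAD BDL VEH rats. The linear intensity of that 1 gene was 390 to 680, against 85.7 to 341 in VAS BDL VEH rats. B and plasma cell markers were tested for 1 of 6 genes, with 0 called in limma, and endothelial markers for 4 of 7, with 1 higher and 0 lower. Hepatocyte markers summed to 153000 to 196000 in VAD and 166000 to 183000 in VAS BDL VEH rats, with 0 of 8 called in limma. In sham VEH rats the macrophage markers summed to 5340 to 9670 in VAD and 4710 to 5480 in VAS animals. The part of these cell types in the changes of the 10 genes was not tested.

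Genes whose 8 group means were most like those of a member were found by the root mean square difference after each gene was centred on its own mean. For Ccl2 they were Fam25a (0.13), the collagen lysyl hydroxylase Plod2 (0.17) and Pf4 (0.18), over a Ccl2 range of 3.63. For Il1b they were Cfd (0.13), Clic1 (0.15) and C11h3orf70 (0.15), over a range of 2.23, and for Cxcl16 Gem (0.23), Pvr (0.24) and Popdc2 (0.28), over 3.11. Ltb had looser matches, of which the ubiquitin-like Ubd (0.42) was the closest over a range of 4.98, followed by Tsx (0.60). Cxcl1 had the immediate early gene Junb (0.52) and Ctse (0.56) over 3.74.

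For Ccl5 the closest genes were Slc25a23 (0.14), Pcsk5 (0.20) and Man1a1 (0.21) over a range of 1.34. For Cxcl9, Slc35c2 (0.27) and Chac1 (0.28) were among the closest 3, over 1.5. For Cxcl10 the closest were RT1-M3-1 (0.11), Srd5a3 (0.12) and Enc1 (0.12) over 1.40. For Cxcl12 the closest were Vnn3 (0.24) and Itga7 (0.24) over 2.05, and for Il1a Sparcl1 (0.14), Pipox (0.20) and Clec4m (0.21) over 1.58. These are likenesses over 8 group means on shared arrays, given as a description. Among single arrays, VAD BDL VEH replicate 3 was the highest of its group for 7 of the 10 genes and VAD BDL VITA replicate 4 for 5.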

How the data were processed

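Per the labels' protocols, liver RNA came from TriReagent, its quality was read on an Experion system, and it was turned into biotin cRNA. The authors deposited, per the file headers, a linear bead intensity and a detection p-value for each of 22523 probes on every array. They also deposited a table of normalised intensity, used as an alternative; how it was scaled, centred and background corrected remains unknown here (column medians 211.951 to 212.04), while its direction follows from a rank correlation of 1.0 with the raw values. Scanner and image software stay unnamed here. Raw array medians were 108.2 to 145.3, and 0 arrays were identical. The number of arrays limits the precision. The p-values rest on 1 estimate per gene of the spread between rats, shared by all 8 groups. Single groups can differ from it: the standard deviation of Cxcl1 was 0.29 in VAD BDL VEH and 1.9 in VAD SHAM VEH rats.

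Background correction and quantile normalisation used neqc of limma 3.58.1 in R 4.3.3, with an offset of 16 and negative controls inferred by detection p-values. The filter asked for detection on 4 or more arrays and left 9545 probes; each of 9314 genes was represented by its brightest probe on average. A RefSeq table supplied gene names for the probes, and gene positions used to describe the promoter windows. By name, 9578 probes matched through the current symbol, 1824 through a gene ID and 5419 through a synonym, while 5702 kept the file's name. A linear model of 8 group means (28 residual degrees of freedom) with moderated errors gave 12 comparisons and 3 interactions, adjusted by Benjamini and Hochberg. Where all arrays of 1 group failed to detect a called gene, its fold is a lower bound ("at least"): the bright group's mean over the dim group's mean of, per array, the higher of the gene's own level and the array's lowest level among detected probes (5.30 to 6.07). The model was tested on simulated data.

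Groups came from the labels. Named genes are the 10 members, up to 3 called genes per pathway list with the largest change in each of 4 comparisons, and the 3 genes most like each member; the few others were picked after their values were seen and are marked so, or are given as undetected or as receptors of a member. The members and lists were chosen with earlier results of these data known. Alternatives were normexp with offset 50, median scaling, the authors' table, no filter or detection on at least 9 arrays, every probe, slide or replicate block, only the groups of the comparison, no slide 3, and each array left out. Promoter windows and motifs used Python 3.11.15 and pandas; unmatched entries are named only. Some genes counted in the pathway lists, and some of the genes most like a member, are not reported by name or drawn here.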

Additional observations from a re-analysis of the deposited data

Results flagged for a closer look

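In 80 tests of a gene in a group, 3 had 1 array far from the others, where chance alone gives about 1 in 20. Ccl5 was low in VAS SHAM VITA replicate 4, at 8.59 against 9.37 for the nearest rat. Il1b was low in VAS BDL VEH replicate 5, at 6.57 against 7.54, and in VAS BDL VITA replicate 3, at 6.40 against 7.75. All 3 were detected on every array of the group.

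The effect of ligation differed between the diets, by a test of the difference itself, in 5 of the 10 genes: Ccl2 (2.90), Ccl5 (-1.30), Cxcl9 (-2.23), Il1a (-1.79) and Ltb (-3.09). The effect of retinyl-palmitate after ligation differed between the diets in Ccl2 (-2.63), a value that was -1.72 without slide 3 (adjusted p = 0.1).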

How the results depend on the processing

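No result reversed under any alternative. Over 150 values of a gene in a comparison, the replicate block kept 150 of 150 on the same side of the threshold, and so did every probe on its own and detection on at least 9 arrays. Replicate numbers did not pair the rats: in 0 of 12 comparisons were all same-number correlations above 0.1 (-0.19 to 0.41). With single arrays left out, 1581 values stayed on their side, 42 lost a call and 17 gained one; under the other alternatives 139 to 146 of 150 stayed.

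For diet in SHAM VEH rats the 2 genes called became 1 under median scaling, the authors' table or no filter, 0 with only the groups compared, 0 without slide 3, and 0 to 1 with single arrays left out. For injection in VAD BDL rats the 3 called became 1 with only the groups compared, and in VAD SHAM rats 0 became 0 to 1 with single arrays left out. For injection by ligation in VAD rats 0 became 1 under normexp, median scaling, the authors' table or slide as a block, and 0 to 1 with single arrays left out. For injection by diet in BDL rats 1 became 2 in the authors' table, 0 without slide 3 and 1 to 3 with single arrays left out. The cause was not tested.

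Counts over all genes moved by over 1.5 times as follows. Diet in SHAM VEH rats went from 103 to 59 (median scaling), 41 (only the groups) and 37 (no slide 3), and injection in VAD SHAM rats from 121 to 39 (only the groups) and 46 (no slide 3). Injection in VAD BDL rats went from 1582 to 1014 (only the groups), ligation in VAS VITA rats from 2357 to 1446 (no slide 3), and diet by ligation from 738 to 489 (median scaling). Injection by ligation went from 253 to 402 (authors' table), 460 (slide block) and 110 (only the groups), and injection by diet from 1250 to 655 (no slide 3).

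Under median scaling the all-gene median shifted by over 0.1 on the log2 scale in 6 comparisons, from -0.01 to 0.15 for ligation in VAS VEH rats (60.4% to 82.1% of calls higher), -0.04 to 0.23 in VAD VEH rats (51.4% to 75.8%), -0.01 to 0.15 in VAS VITA rats (57.2% to 76.9%), 0 to 0.12 for injection in VAD SHAM rats (57% to 84.8%), -0.01 to -0.2 for injection by ligation (41.5% to 13.8%) and 0 to -0.12 for injection by diet (42.8% to 29.1%). The share of higher calls also went from 62.1% to 39% for diet in SHAM VEH rats, 53.7% to 71% for diet by ligation and 45.1% to 34.6% for injection in VAD BDL rats. Differences in the authors' table and with offset 50 were smaller in size. Ccl2, Cxcl10 and Ltb were near background in sham rats, and Ccl2 in VAS BDL VEH rats too, which limits their folds.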
